A study of Mus musculus with 12 samples.

Results

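The 10 genes described here encode proteins of the neuronal cytoskeleton and growth cone. The list of names was fixed, but it was chosen with earlier results of these data known. They are Tubb3, Stmn2, Map2, Mapt, Map1b and Dcx, which act on or build microtubules, the intermediate filament genes Nefl, Nefm and Prph, and Gap43 of the growth cone. All 10 were matched, among 17277 genes with a symbol, and each had 3 probes from 1 transcript, so that they account for 30 of the 72000 probes. RNA was measured on 12 single-color NimbleGen arrays, 1 for each of 4 separately grown plates of 3 untreated mouse lines, all kept in DMEM with serum. AtT20 is a line from a pituitary tumor, BV2 is a microglial line and N18 is a neuroblastoma line, so every comparison is between single immortalized lines and the 4 plates measure the spread within a line. The RNA came from whole plates, in which fewer cells of a kind and less RNA per cell cannot be told apart.

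Microtubules of neurons carry a set of tubulins and associated proteins that other cells use little. Tubb3 is the beta tubulin taken as a marker of neurons, Map2 is known from dendrites and Mapt (tau) from axons, Map1b and Dcx (doublecortin) belong to growing and migrating neurons, and Stmn2 (SCG10) promotes turnover of microtubules in growth cones. Neurofilaments are built from light (Nefl), medium (Nefm) and heavy chains, while peripherin (Prph) is the filament protein of peripheral and sympathetic neurons, the lineage from which neuroblastoma arises.

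The arrays of the 3 lines differed before any gene was compared. The median log2 intensity was 10.85 to 11.50 on the AtT20-labelled plates, 9.90 to 10.28 in BV2 and 10.10 to 10.54 in N18, and the interquartile range was 0.38 to 0.78, 1.28 to 1.73 and 1.91 to 2.21. The level of a gene is its log2 value minus the mean of 10 seminal proteins on the same plate, which stand for no expression, and a gene was above the threshold when its mean level exceeded 2 SD of these proteins. This threshold came to 0.74 ± 0.10 in N18 (SD, n = 4), 0.56 ± 0.15 in BV2 and 0.37 ± 0.11 on the AtT20-labelled plates. The BV2 and N18 labels fit their markers, since 7 of 9 microglia genes were above the threshold in BV2, among them Csf1r at 4.70 ± 0.39, and 12 of 14 neuroblastoma genes in N18. The microglia marker Aif1, at 0.30 ± 0.18 in BV2, was an exception. The corticotroph hormone gene Pomc was below the threshold on the AtT20-labelled plates, at 0.29 ± 0.26, as were Tbx19 (0.02) and Pcsk1 (0.14). Of the 7 corticotroph genes, Cpe (1.86) and Pitx1 (0.47) were above it there, while 2 were above it in BV2 (Pomc at 0.67 and Tbx19 at 1.43) and 4 in N18. The AtT20-labelled plates are therefore named by their label throughout.

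Of the 10 genes, 8 were above the threshold in N18, 6 on the AtT20-labelled plates and 4 in BV2. Over all 25128 genes and unnamed targets the share above the threshold was 55.4%, 35.0% and 53.3% in the same order. The median level of the 10 genes was 4.10 in N18, 0.52 on the AtT20-labelled plates and 0.43 in BV2. Tubb3, Stmn2, Map2, Mapt, Map1b, Prph and Gap43 were highest in N18, Nefl and Nefm were highest on the AtT20-labelled plates, and Dcx stayed below the threshold in each line.

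**Figure D1:**
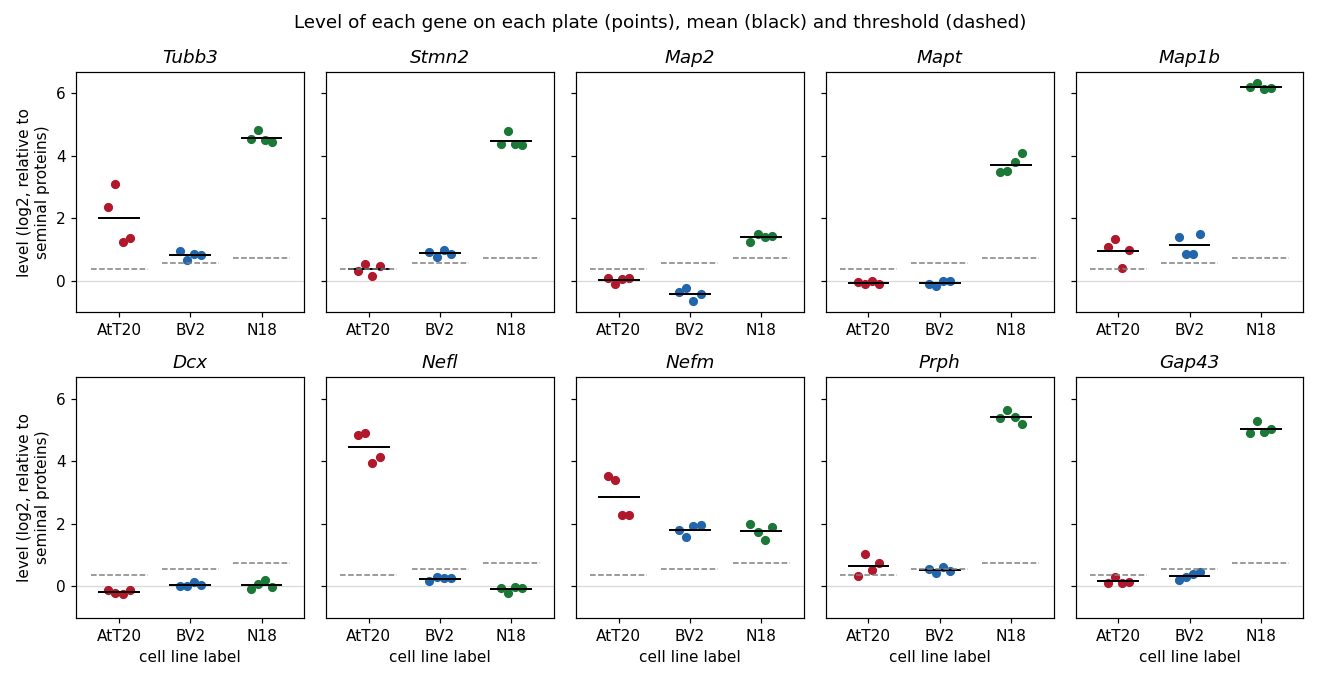
Level of each gene on every plate, as log2 relative to the mean of the seminal proteins, for the AtT20-labelled plates, BV2 and N18. Points are plates, black lines are means of 4 plates and dashed lines are the threshold of the line; 7 genes stand highest in N18, Nefl and Nefm on the AtT20-labelled plates, and Dcx lies below each threshold.

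The lines were then compared with limma after quantile normalization of the 12 arrays, with p values adjusted over 25128 genes and targets. Between N18 and BV2, 7 of the 10 genes were higher in N18 and 2 lower, while over all genes and targets 19.0% were higher and 21.9% lower. The median difference of the 10 genes was 2.90 on the log2 scale, against -0.06 over all. On the quantile-normalized scale each N18 plate of the same 7 genes lay above each BV2 plate, as for 23.5% of all genes and targets, and for Nefl and Nefm each lay below (31.9% of all). Relative to the seminal proteins 7 were higher and 0 lower (38.8% and 13.1% of all), and without normalization again 7 and 0 (30.7% and 7.58%). The 7 differences kept their direction and passed the test under each of the alternative settings, and were larger without normalization and relative to the seminal proteins than after quantile normalization.

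Map1b, which stabilizes microtubules in growing axons, showed the largest difference of the 10 between N18 and BV2. Its levels on the 4 N18 plates were 6.21, 6.34, 6.14 and 6.16, against 1.39, 0.87, 0.87 and 1.50 in BV2 and 1.07, 1.34, 0.40 and 0.98 on the AtT20-labelled plates. The N18 plates stood apart from the other 8, which overlapped. N18 exceeded BV2 by a log2 difference of 4.60 ± 0.12 (SE, adjusted p = 3.09e-14 in limma), the ninth largest of the 25128, and that of N18 from AtT20 was 3.80 ± 0.12 (adjusted p = 1.71e-13).

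Tubb3, the neuronal beta tubulin, had levels of 4.55, 4.83, 4.52 and 4.43 on the N18 plates and of 0.95, 0.67, 0.87 and 0.82 on the BV2 plates. On the AtT20-labelled plates its levels spread from 1.25 to 3.11 around a mean of 2.02 ± 0.88, above BV2 and below N18 with no overlap. N18 was higher than BV2 by 3.05 ± 0.16 (SE, adjusted p = 1.61e-10 in limma). That of N18 from AtT20 was 0.94 ± 0.16 (adjusted p = 5.89e-05), and 2.56 relative to the seminal proteins. These SE share 1 spread among the lines, while the quantile-normalized plates of Tubb3 had an SD of 0.41 for AtT20, 0.08 in N18 and 0.07 in BV2. The probes of Tubb3 disagreed between N18 and AtT20. Probes 1 and 3 were higher in N18 by 3.27 and 3.15 and probe 2 lower (-0.48, adjusted p = 0.0419), although probe 2 was higher by 1.26 relative to the seminal proteins.

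Stmn2, a stathmin that binds tubulin dimers, lay at 4.38, 4.81, 4.38 and 4.36 on the N18 plates, at 0.93, 0.76, 0.98 and 0.86 in BV2 and at 0.32, 0.53, 0.16 and 0.49 on the AtT20-labelled plates. The 3 lines did not overlap. N18 differed from BV2 by 2.88 ± 0.11 (SE, adjusted p = 2.16e-12 in limma) and from AtT20 by 2.50 ± 0.11 (adjusted p = 6.54e-12). The mean on the AtT20-labelled plates, 0.38, was at the threshold and fell below it without plate 2 (0.32) or plate 4 (0.34).

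Mapt, the tau gene, was above the threshold in N18 alone, with levels of 3.49, 3.51, 3.79 and 4.08. All 8 other plates lay between -0.17 and -0.01, so that BV2 and the AtT20-labelled plates could not be separated by their levels. Since a gene at background has only an upper limit, the fold of N18 over BV2 was taken against the BV2 threshold and is at least 5.1, and that over AtT20 is at least 3.0. The fitted log2 difference of N18 from BV2 was 2.93 ± 0.17 (SE, adjusted p = 4.97e-10 in limma).

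Map2, the dendritic protein, showed the smallest of the N18 differences. Its levels were 1.23, 1.49, 1.41 and 1.43 in N18, -0.35, -0.23, -0.66 and -0.43 in BV2 and 0.08, -0.10, 0.06 and 0.09 on the AtT20-labelled plates. N18 was above both other lines on each plate and was at least 1.2-fold above the BV2 threshold (difference 1.21 ± 0.10, SE, adjusted p = 4.96e-08 in limma). Once the seminal proteins were replaced by olfactory receptor genes, Map2 was no longer above the threshold in N18 (1.10). Its difference of N18 from AtT20, 0.41 ± 0.10 (adjusted p = 0.00147), was -0.03 without normalization.

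Dcx, which binds microtubules in migrating neuroblasts, was below the threshold on each of the 12 plates. Its levels lay between -0.08 and 0.19 in N18, between 0.00 and 0.13 in BV2 and between -0.23 and -0.12 on the AtT20-labelled plates, where they overlapped with neither line. N18 and BV2 differed by -0.08, with a 95% interval of -0.25 to 0.10 (adjusted p = 0.513 in limma). None of the 3 Dcx probes exceeded the threshold in any line (0 of 3 in each).

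Gap43, a membrane protein of growth cones and regenerating axons, had levels of 4.92, 5.29, 4.94 and 5.04 in N18. The gene was below the threshold in the other lines, at 0.19, 0.30, 0.38 and 0.47 in BV2 and 0.10, 0.30, 0.12 and 0.14 on the AtT20-labelled plates. N18 was above BV2 by 4.04 ± 0.11 on the log2 scale (SE, adjusted p = 5.01e-14 in limma) and above AtT20 by 3.54 ± 0.11 (adjusted p = 1.71e-13). Single Gap43 probes passed outside N18, probe 2 on the AtT20-labelled plates (0.65 ± 0.20, SD, n = 4), where N18 was higher by 2.13, and probe 3 in BV2 (0.79 ± 0.17), where N18 was higher by 4.50. The gene was above the threshold in N18 under each alternative for detection.

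Prph, the filament protein of sympathetic neurons, was high in N18 like Gap43 and unlike Nefl and Nefm. Its levels were 5.39, 5.66, 5.41 and 5.19 in N18, 0.54, 0.44, 0.62 and 0.50 in BV2 and 0.33, 1.05, 0.51 and 0.76 on the AtT20-labelled plates, where BV2 and AtT20 overlapped. N18 was above BV2 by 4.28 ± 0.15 on the log2 scale (SE, adjusted p = 1.4e-12 in limma), and probe 3 of Prph was above the threshold in BV2 at 1.15 ± 0.09 (SD, n = 4). The mean on the AtT20-labelled plates, 0.66, passed the threshold and that of BV2, 0.53, did not, a contrast that ended with olfactory receptor controls, when all 4 plates had to pass, or without the highest seminal protein. The difference of AtT20 from BV2 was 1.23 after quantile normalization but 0.13 relative to the seminal proteins (adjusted p = 0.596).

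**Figure D2:**
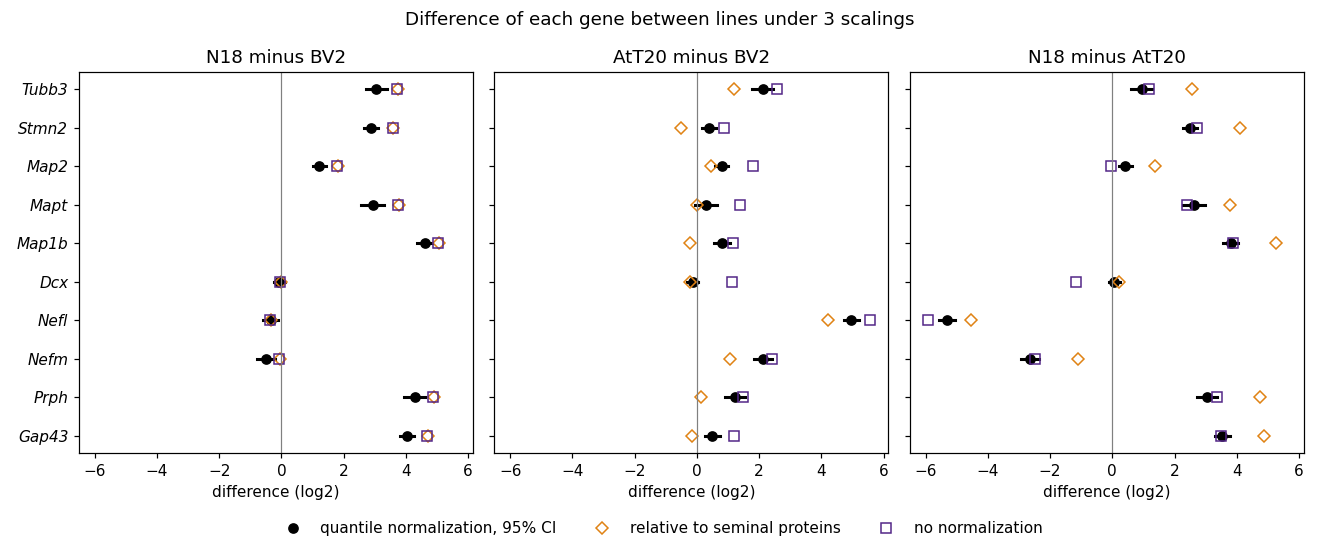
Log2 difference of each gene between 2 lines, with black points and 95% intervals for quantile normalization, orange diamonds for levels relative to the seminal proteins and purple squares for no normalization. The 3 scalings spread by less than 1 for each gene for N18 against BV2, most widely for Mapt (2.93, 3.79 and 3.76 in this order). They spread by more than 1 for each gene wherever the AtT20-labelled plates enter.

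Promoters of 4 of the 7 genes higher in N18 are shown because these genes moved together, as the 250 bases before a transcript start in the RefSeq table for GRCm38.p6. Stmn2, Mapt and Gap43 had no entry, nor did Nefl and Nefm. Capitals mark matches on either strand to GGGCGG, the GC box bound by Sp1 factors, and to TATAAA, the element bound by the general factor TBP. No matches overlap.
Map1b, chr13:99516603-99516852, minus strand: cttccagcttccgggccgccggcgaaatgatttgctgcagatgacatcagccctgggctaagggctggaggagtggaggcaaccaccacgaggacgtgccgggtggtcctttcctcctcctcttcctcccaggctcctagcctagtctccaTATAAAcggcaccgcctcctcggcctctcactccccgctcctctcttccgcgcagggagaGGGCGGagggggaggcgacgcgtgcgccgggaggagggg
Prph, chr15:99054924-99055173, plus strand: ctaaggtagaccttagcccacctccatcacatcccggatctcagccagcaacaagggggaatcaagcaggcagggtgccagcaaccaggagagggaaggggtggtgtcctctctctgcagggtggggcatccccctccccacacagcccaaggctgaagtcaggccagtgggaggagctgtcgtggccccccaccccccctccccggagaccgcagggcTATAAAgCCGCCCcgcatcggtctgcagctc
Tubb3, chr8:123411303-123411552, plus strand: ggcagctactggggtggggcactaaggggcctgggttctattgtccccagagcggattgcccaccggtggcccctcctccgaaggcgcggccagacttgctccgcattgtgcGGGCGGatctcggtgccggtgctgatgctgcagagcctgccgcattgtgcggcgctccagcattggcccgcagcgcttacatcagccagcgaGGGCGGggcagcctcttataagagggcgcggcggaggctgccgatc
Map2, chr1:66175079-66175328, plus strand: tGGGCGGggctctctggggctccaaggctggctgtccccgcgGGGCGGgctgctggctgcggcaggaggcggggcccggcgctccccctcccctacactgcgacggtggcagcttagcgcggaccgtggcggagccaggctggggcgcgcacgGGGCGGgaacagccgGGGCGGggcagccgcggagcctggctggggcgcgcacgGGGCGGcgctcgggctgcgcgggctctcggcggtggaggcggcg
All 4 held GGGCGG, with 5 matches in Map2, 2 in Tubb3 and 1 each in Map1b and Prph, where 32.7% of the 32851 promoters of the table held at least 1. TATAAA occurred once each in Map1b and Prph, and in 12.4% of all promoters, and it also occurred once in the entries for Dcx, which held 0 of the GC boxes. An E-box, CAGCTG, occurred in none of the 4 (0 matches) and in 13.0% of all. The 4 regions were 65.2% to 81.2% G and C, against a median of 52.4% over the table.

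Nefl and Nefm, the light and medium neurofilament chains, are neighbours in the genome and differed from the other 8 genes. Nefl had levels of 4.83, 4.91, 3.95 and 4.13 on the AtT20-labelled plates, of 0.16, 0.29, 0.28 and 0.26 in BV2 and of -0.06, -0.21, -0.03 and -0.05 in N18. The gene was above the threshold on the AtT20-labelled plates only, where it was at least 13-fold above N18. The fitted difference of AtT20 from BV2 was 4.96 ± 0.12 (SE, adjusted p = 1.16e-14 in limma) and that of N18 from AtT20 was -5.31 ± 0.12, both against a line near background, with probe 1 of Nefl above the threshold in BV2 (0.66 ± 0.11, SD, n = 4). Relative to the seminal proteins these values were 4.21 and -4.54.

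Nefm had levels of 3.54, 3.39, 2.27 and 2.28 on the AtT20-labelled plates, of 1.79, 1.59, 1.93 and 1.96 in BV2 and of 1.98, 1.73, 1.49 and 1.91 in N18. The AtT20-labelled plates were above both other lines, which overlapped. The difference of AtT20 from BV2 was 2.12 ± 0.14 (SE, adjusted p = 8.19e-10 in limma) and 1.05 relative to the seminal proteins (adjusted p = 0.00209). N18 was lower than BV2 by small amounts for both chains after quantile normalization, at -0.35 for Nefl (adjusted p = 0.0221) and -0.51 for Nefm (adjusted p = 0.00689). Neither passed without normalization (-0.36 and -0.07) or relative to the seminal proteins (-0.33 and -0.04), and Nefl did not pass without plate 2 or 3 of BV2 (adjusted p = 0.0672 and 0.0541) or plate 2 of N18 (0.0714).

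The measured genes beside this pair did not share its pattern. Of the 3 nearest on each side, chosen after the values of Nefl were seen, only Gnrh1 was above the threshold on the AtT20-labelled plates (0.60), while it stood at 1.56 in BV2. The differences of AtT20 from BV2 for these 6 genes lay between -1.09 for Kctd9 and 0.38 for Adamdec1.

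The 3 probes of a gene were also kept apart, numbered in the order of their identifiers. In N18, 24 of the 30 probes were above the threshold, which left out the 3 of Dcx and the 3 of Nefl. The share of all 72000 probes above it was not computed, while that of all genes and targets in N18 was 55.4%. All 21 probes of the 7 genes higher in N18 were themselves higher in N18 than in BV2, with 3 of the other 9 lower. Over all 72000 probes, 14.5% were higher and 13.2% lower (limma, adjusted over these probes). The genes, Nefl included, were called from means of these same probes. The probe counts thus show agreement within a gene and are no separate support. The 3 Nefl probes were likewise all higher on the AtT20-labelled plates than in BV2, by 4.51, 5.44 and 4.94, where 34.8% of all probes were higher. Of the 30 probes 16 were higher and 4 lower in that comparison (27.7% of all were lower), and 19 were higher and 6 lower in N18 than on the AtT20-labelled plates (29.8% and 36.0% of all).

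Other genes had probes that disagreed on the AtT20-labelled plates. For Tubb3, probe 2 had a level of 3.28 ± 1.06 (SD, n = 4) there and probes 1 and 3 had -0.19 ± 0.17 and 0.36 ± 0.20, below the threshold. Map1b was above the threshold there through probe 3 (1.92 ± 0.60), with probes 1 and 2 at -0.11 ± 0.06 and 0.01 ± 0.14, and with the median of the probes its difference of AtT20 from BV2 turned from 0.80 to -0.64. For Nefm, probes 1 and 3 were higher on the AtT20-labelled plates than in BV2 by 2.66 and 2.86 and probe 2 differed by -0.15 (adjusted p = 0.459). The level of Nefm probe 2 was lowest on the AtT20-labelled plates, at 0.72 ± 0.30, against 2.16 ± 0.44 in BV2 and 2.67 ± 0.26 in N18. Relative to the seminal proteins this probe thus ran opposite to the other probes of Nefm, with AtT20 minus BV2 at -1.44 and N18 minus AtT20 at 1.95, while after quantile normalization it did not separate the lines. In BV2, Stmn2 was above the threshold through probe 3 only (1.67 ± 0.19), with probes 1 and 2 at 0.10 ± 0.21 and 0.31 ± 0.12.

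**Figure D3:**
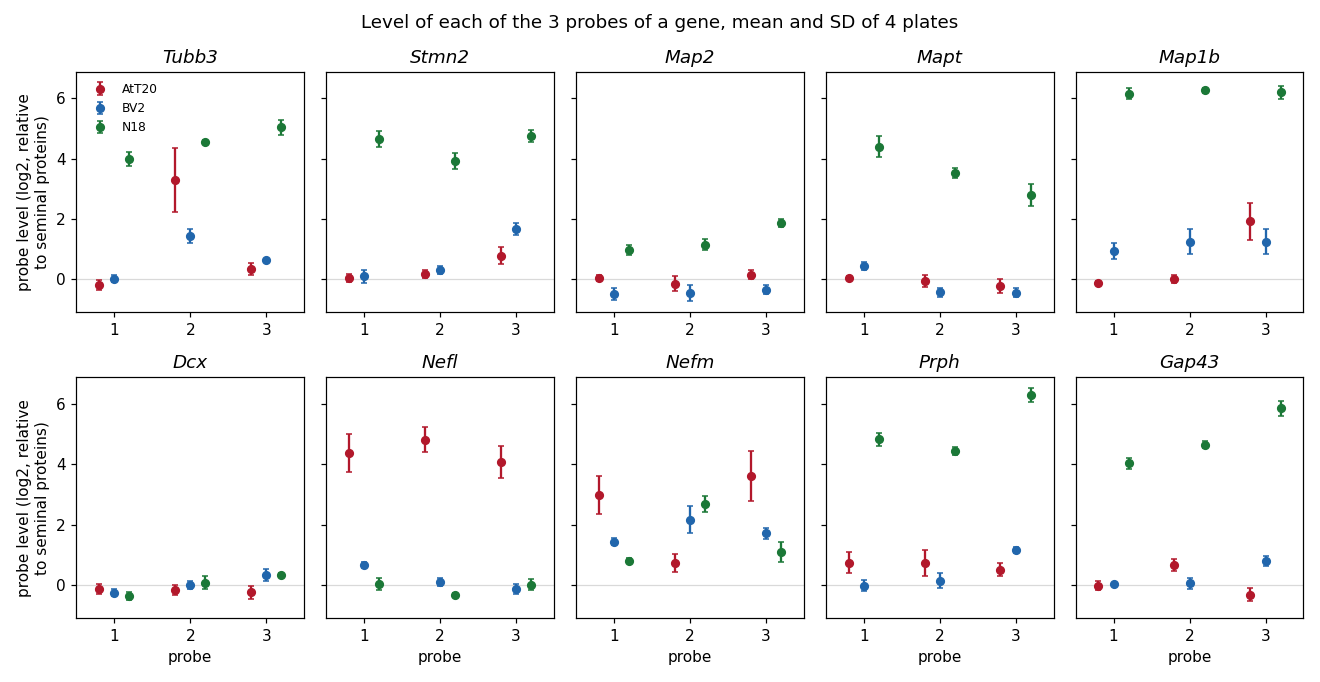
Level of each of the 3 probes of a gene, as log2 relative to the seminal proteins, with the mean and SD of 4 plates for the AtT20-labelled plates (red), BV2 (blue) and N18 (green). All probes of the genes highest in N18 are above the threshold there, as are those of Nefl on the AtT20-labelled plates. They differ in level within a gene, as for Prph in N18 (4.82, 4.44 and 6.29). On the AtT20-labelled plates probe 2 of Tubb3 and probe 3 of Map1b stand above the other probes of their gene.

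Comparisons with the AtT20-labelled plates depended on the scaling of the arrays. After quantile normalization 8 of the 10 genes were higher on these plates than in BV2 and 0 lower, where 47.0% of all genes and targets were higher and 26.6% lower, and 6 of the 10 seminal proteins were higher too. Each plate labelled AtT20 lay above each BV2 plate for 9 genes and below for 0 (39.7% and 22.9% of all). Relative to the seminal proteins 4 of the 10 genes were higher and 2 lower (17.6% and 50.4% of all), and without normalization all 10 were higher (74.7% of all, with 11.7% lower). The median difference of AtT20 from BV2 over all genes and targets was 0.23, -0.28 and 1.08 in the same order. The 4 genes higher in AtT20 than in BV2 under each of these scalings were Nefl, Nefm, Tubb3 and Map2, the last below the threshold in both lines. For Tubb3 this rested on probe 2 relative to the seminal proteins (1.84), with probes 1 and 3 at -0.23 and -0.29. For N18 against AtT20, 7 of the 10 genes were higher in N18 and 2 lower (27.8% and 48.6% of all), and the plates did not overlap for these 9 genes (24.9% of all lay above and 43.3% below). The counts were 8 and 2 relative to the seminal proteins (60.7% and 16.3%) and 6 and 3 without normalization (19.9% and 63.1%), with Nefl and Nefm lower under each scaling. Of 7 genes of all cells, 4 were also higher in N18 than on the AtT20-labelled plates (Ywhaz by 4.17, Gapdh by 1.83, Sdha by 1.69 and Ppia by 1.43) and 1 lower, their median level being 2.73 on those plates and 5.21 in N18 and in BV2, and their part in the result was not tested. The counts share arrays with those of N18 against BV2.

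A wider list of 22 measured genes of the neuronal cytoskeleton showed how far the pattern extended. In N18, 20 of the 22 were above the threshold, against 15 on the AtT20-labelled plates and 11 in BV2. The shares over all genes and targets were 55.4%, 35.0% and 53.3%, so the count in BV2 was near its share. Between N18 and BV2, 19 were higher in N18 and 0 lower (19.0% and 21.9% of all), with a median difference of 2.07. Large differences were fitted for the CRMP proteins Dpysl3, at 4.82, and Crmp1, at 4.62, and for the neuronal ubiquitin hydrolase Uchl1, at 4.64. Dpysl3 was below the threshold in BV2 (0.01 ± 0.07, SD, n = 4), so that its difference is against background. The 3 that did not pass the test were Tubb4a (0.26), Dpysl4 (-0.05) and Fez1 (-0.11). Under the alternatives other than a difference of at least 1, 19 to 20 of the 22 were higher in N18.

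The families of the 10 genes were followed within this list, with the genes chosen after their values were seen. The filament genes Nefh, the heavy neurofilament chain, and Ina, alpha-internexin, were high in N18 (4.80 ± 0.27 and 3.71 ± 0.28, SD, n = 4) but not on the AtT20-labelled plates (0.42 ± 0.21 and -0.08 ± 0.17), so that they went with Prph and not with Nefl and Nefm. Among the stathmins, Stmn1, found in dividing cells, was high in N18 at 6.21 ± 0.14 and in BV2 at 4.00 ± 0.37, whereas Stmn2 was high in N18 alone. Basp1 and Marcks, membrane proteins with functions like those of Gap43, were above the threshold on the AtT20-labelled plates (3.75 ± 0.71 and 3.21 ± 0.55) as well as in N18 (4.22 ± 0.29 and 4.25 ± 0.24), where the mean of the Gap43 probes was above it in N18 only.

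**Figure D4:**
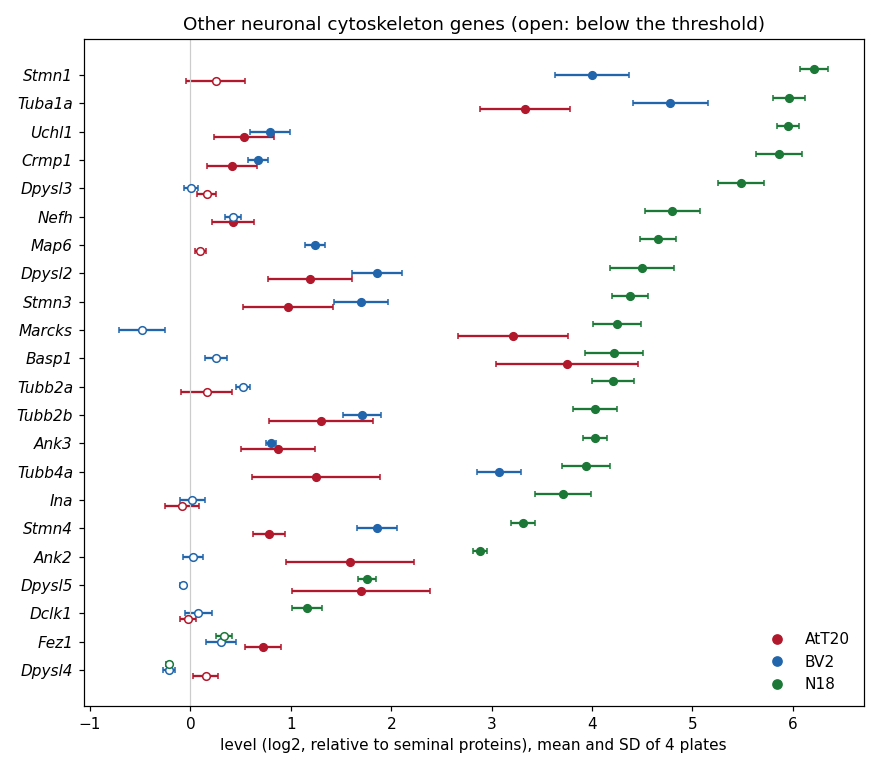
Level of 22 other neuronal cytoskeleton genes, as log2 relative to the seminal proteins, with the mean and SD of 4 plates in each line and open points below the threshold. Most genes stand highest in N18 (green), while Basp1, Marcks, Dpysl5 and Ank2 are above the threshold there and on the AtT20-labelled plates (red) but not in BV2 (blue), as is Nefh by a small margin.

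Cytoskeleton genes of all cells differed less. Of 13 such genes, 8 were higher in N18 than in BV2 and 1 lower (19.0% and 21.9% of all genes and targets). Their median difference was 0.40, with a range from -0.49 to 1.21, led by Tubg1 (1.21), Map4 (1.06) and Tubb4b (0.81). Tubb5, the common beta tubulin, had levels of 5.64 ± 0.15 in N18 and 4.43 ± 0.25 in BV2 (SD, n = 4), a difference of 0.68 after quantile normalization and of 1.21 relative to the seminal proteins, where those of Tubb3 were 3.05 and 3.76. The neuroblastoma genes moved with the 10 genes, 11 of 14 being higher in N18 than in BV2 and 1 lower, with Chgb at 4.95 and Ret at 3.74. The microglia genes moved against them, 7 of 9 being lower in N18 and 0 higher. The same shares of all genes and targets stand beside both lists.

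Regulators of neuronal transcripts were listed as well. Rest, the repressor of neuronal genes outside neurons, was above the threshold in each line, at 1.99 ± 0.29 in N18, 2.11 ± 0.35 in BV2 and 0.64 ± 0.23 on the AtT20-labelled plates (SD, n = 4). N18 minus BV2 was -0.61 for Rest (adjusted p = 0.00018 in limma) after quantile normalization and -0.12 relative to the seminal proteins. Of the 13 regulators measured, 8 were higher in N18 than in BV2 and 1, Rest, lower (19.0% and 21.9% of all genes and targets). The neuronal Elav proteins, which bind and stabilize messages such as that of Gap43, were the 3 with the largest difference, Elavl3 at 1.82, Elavl4 at 1.56 and Elavl2 at 1.48, while Elavl1, present in all cells, did not pass (-0.07).

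The genes whose pattern over the 12 arrays was most like the mean of the 8 members above the threshold in N18 were Kif5c, a neuronal kinesin (r = 0.998), Col4a2 and Mtus1 (both 0.996), Eef1a2 (0.995) and Tppp3 (0.994). The arrays fall into 3 lines, so that such values describe the same difference between lines, and 279 of 17267 other genes had r over 0.95.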

How the data were processed

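The deposited values are on a log2 scale and were derived by the authors from Cy3 signals of mouse oligonucleotide arrays (MM8 design, NimbleScan 2.4), with the probes of a target kept apart. No background subtraction or normalization between arrays was described or found. Transcript identifiers were matched to symbols for 69.4% of 25631 targets through a RefSeq table, used for names and order of genes only. Probes were averaged on the linear scale and targets of a gene on the log2 scale. Differences between lines were fitted by lmFit and eBayes (trend, limma 3.58.1, R 4.3.3), with Benjamini-Hochberg adjustment over 25128 genes and targets and a threshold of 0.05. All 12 arrays entered the same fit, so that the SE of a gene pools the spread of the 3 lines and is not that of the pair compared. The normexp alternative used an offset of 50. A bound on a fold is the smallest over 3 scalings, rounded down. The members and lists were chosen with earlier results of these data known. Genes named are the members, Rest, Elavl4, Pomc, Aif1, Cdk5r1, the 3 called genes of each list with the largest difference of N18 from BV2, each called gene of lists with 5 or fewer, and the 5 genes most alike. Some genes under this rule are not reported here. Others were chosen after their values were seen. Plate numbers were not used as pairs. Both steps were tested on simulated data, in which the test of limma used 1 spread per gene for all lines. A log2 change of 1 was recovered for 92.5% to 95.5% of the changed genes, with 4.1% to 6.4% of calls false. For a change of 0.5 these values were 29.5% to 34.5% and 4.8% to 10.6%, so that many changes of that size would be missed. Slides are not named in the labels, so a slide and a line cannot be told apart, and the number of arrays limits the precision. Figures and tables were made with Python 3.11.15, pandas 2.3.3, numpy 2.4.6 and matplotlib 3.10.9.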

Additional observations from a re-analysis of the deposited data

Results flagged for a closer look

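Of 30 groups of 4 plates (10 genes in 3 lines), 2 held a plate far from the others by Dixon's criterion, which chance exceeds in about 5% of groups. The level of Stmn2 in N18 reached 4.81 on plate 2, where the other plates had 4.36 to 4.38, all far above the threshold of 0.74. Plate 2 was also the highest N18 plate for Gap43 (5.29), Map1b (6.34), Prph (5.66), Tubb3 (4.83) and Map2 (1.49), but not for Mapt or Nefm. The high plate was thus not particular to Stmn2. The level of Map2 on the AtT20-labelled plates was -0.10 on plate 2, where the other plates had 0.06 to 0.09, below the threshold on each.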

How the results depend on the processing

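The counts of genes higher in N18 than in BV2 (7) and above the threshold in N18 (8 or, with olfactory receptor genes as controls, 7) moved little under the alternatives run. With those controls 1 of the 10 genes was above the threshold in BV2 in place of 4. The shares of all genes and targets above the threshold with those controls were not computed, so these counts have no background beside them. The 2 genes lower in N18 than in BV2 became 0 without normalization, relative to the seminal proteins and with a difference of at least 1, and 1 with the median of the probes. The 8 genes higher in AtT20 than in BV2 became 4 relative to the seminal proteins and 4 with a difference of at least 1, and the 0 lower became 2 relative to the seminal proteins and 1 with the median of the probes. Probes of the 10 genes called in the same comparison were 16 higher and 4 lower, 25 and 0 without normalization, and 7 lower relative to the seminal proteins (alternatives for probes were chosen after seeing the data). The shares over all probes under these alternatives were not computed. Directions reversed without normalization for Map2 (-0.03) and Dcx (-1.17) in N18 against AtT20 and for Dcx (1.14) in AtT20 against BV2. In the latter comparison Stmn2 (-0.50), Map1b (-0.21) and Gap43 (-0.17) reversed relative to the seminal proteins, and Map1b (-0.64) with the median of the probes. The cause was not tested. Leaving out each plate in turn gave 5 to 6 genes above the threshold on the AtT20-labelled plates, 4 in BV2 and 8 in N18, 7 higher and 1 to 2 lower in N18 than in BV2, 7 and 2 in N18 than in AtT20, and 8 and 0 in AtT20 than in BV2. Correlations of deviations between plates of the same number lay between -0.11 and 0.32, so the numbers were not taken as pairs, and the replicate block left these counts at 7 and 2, 7 and 2, and 8 and 0. Array signal over background limits levels near the threshold.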

Other observations

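Of 15 measured kinases and activators acting on tau and other members, 5 were higher in N18 than in BV2 and 5 lower (limma adjusted over all genes, where 19.0% were higher and 21.9% lower), with a median difference of 0.10 on the log2 scale. Gsk3b was higher in N18 by 1.25, Dyrk1a lower by -3.02 and Mark2 lower by -0.97, the last not passing relative to the seminal proteins (-0.33, adjusted p = 0.413) or without normalization (-0.35, adjusted p = 0.239). Dyrk1a had levels of -0.72 ± 0.16 in N18, 2.63 ± 0.42 in BV2 and 1.79 ± 1.04 on the AtT20-labelled plates (SD, n = 4). Cdk5r1, the neuronal activator of Cdk5, had levels of 1.75 ± 0.20, 1.14 ± 0.14 and 0.82 ± 0.47 in the same order, with N18 minus BV2 at 0.10 after quantile normalization (adjusted p = 0.596) and at 0.61 relative to the seminal proteins (adjusted p = 0.0121). Relative to the seminal proteins 8 of the 15 were higher in N18 and 2 lower (38.8% and 13.1% of all).

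Of 7 corticotroph genes, 3 were higher in N18 than in BV2, Cpe (2.78), Crhr1 (2.08) and Pitx1 (0.34), and Tbx19 was lower (-0.38, but 0.02 relative to the seminal proteins). Over all genes and targets 19.0% were higher and 21.9% lower, the shares for each list here. Of 7 glia genes 0 were higher in N18 and 3 lower, among them Olig1 (-0.42) and Mbp (-0.47, but -0.18 relative to the seminal proteins, adjusted p = 0.196). Of 7 genes of all cells Tbp was higher (0.53) and Pgk1 (-0.86) and Hprt (-0.57) were lower. Relative to the seminal proteins 2 were higher and 0 lower (38.8% and 13.1% of all), with Pgk1 at -0.18 and Hprt at 0.07.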
